A study of Homo sapiens with 15 samples.

Results

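Collagen genes were examined in the BRAF-mutant human melanoma line A375. The set was chosen by name: every gene of the deposited table named as a collagen alpha chain (COL, a type number, A and a chain number), together with the collagen prolyl 4-hydroxylases P4HA1, P4HA2 and P4HA3, the lysyl hydroxylases PLOD1, PLOD2 and PLOD3, the lysyl oxidases LOX, LOXL1 and LOXL2, and the collagen chaperone SERPINH1. It holds 40 of the 18322 genes in the table, of which 31 are chains (10 fibrillar, 5 of basement membranes and 16 others) and 9 are enzymes or the chaperone. LOX and 13 further collagen chain genes, COL2A1, COL4A3, COL6A5, COL6A6, COL9A1, COL10A1, COL14A1, COL20A1, COL22A1, COL23A1, COL25A1, COL26A1 and COL28A1, were not analysed here.

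RNA was sequenced in 5 groups of 3 libraries, described by the series as biological triplicates: the parental line (Parental), a population of the same line resistant to PLX4720, an inhibitor of mutant BRAF (Resistant), the parental line with MYC T58A, a mutant form of the transcription factor MYC that is degraded more slowly (MYC T58A), and the resistant population with either of 2 short hairpins named for MYC (Resistant-shMYC1 and Resistant-shMYC2, called shMYC1 and shMYC2 below). By these descriptions all 5 groups share the A375 background, and both hairpin groups start from the resistant population. The series describes that population as clonal, so no second resistant population is available for comparison. Whether the hairpin groups kept the resistance was not tested here. The promoter that drives MYC T58A, the hairpins' target sites and any drug present at harvest are not named in the descriptions used here. The comparisons ask which collagen genes differed in resistant cells, with MYC T58A in parental cells, and in resistant cells carrying each hairpin label.

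Collagens are trimers of alpha chains wound into a triple helix. Types I, II, III, V, XI, XXIV and XXVII form fibrils, type IV forms the sheet-like network of basement membranes and type VI forms beaded filaments. Other types form hexagonal networks, coat fibrils, anchor membranes or span the cell surface. In the endoplasmic reticulum, prolyl 4-hydroxylases stabilise the helix, lysyl hydroxylases prepare lysines for cross-links and SERPINH1 (HSP47) binds the folded helix. Outside the cell, lysyl oxidases start the cross-links. In skin, melanocytes rest on a basement membrane rich in type IV collagen, and melanoma cells that leave it meet the fibrillar collagens of the dermis.

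The libraries held 24222192 to 30399644 reads in genes. Libraries of a group were alike (correlation of log2 values 0.99 to 0.994), while those labelled shMYC2 stood apart from the other groups (0.828 to 0.848, against 0.928 to 0.975 between the rest) and had 1636 to 1694 genes without a read, against 296 to 665. MYC itself was at 422.7 ± 11.9 normalized reads (mean ± SD, n = 3) in Parental, 302.5 ± 28.1 in Resistant, 3510.6 ± 94.4 in MYC T58A, 486.0 ± 29.5 in the libraries labelled shMYC1 and 7816.6 ± 259.8 in those labelled shMYC2, so it was higher than in Resistant, not lower, under both hairpin labels, which are therefore used below as labels only. The melanocytic markers found (6 of 8 listed; MLANA and TYR were not analysed here) summed to 6800.6 to 7102.0 normalized reads per library in Parental, 3548.7 to 3987.8 in Resistant, 13097.8 to 15464.2 under shMYC1, 190.6 to 244.5 under shMYC2 and 3578.6 to 3974.3 in MYC T58A. DCT was at 0 in every shMYC2 library, but its mean was also only 1.0 in Parental and 0.6 under shMYC1, against 78.6 in MYC T58A. The markers did not move together. SOX10 fell from 5282.2 in Parental to 7.5 in Resistant and 9.1 in MYC T58A, while MITF rose from 1508.7 to 3747.6 and 3592.4. TYRP1 was at 3.8 in Parental, 11.2 under shMYC2 and 60.3 in MYC T58A. The 7 fibroblast markers summed to 450.6 to 513.1, 3531.4 to 3777.9, 409.3 to 412.0, 2268.5 to 2361.3 and 484.8 to 545.3 in the same order. PDPN was at 0 in the libraries labelled shMYC1 or shMYC2 and in MYC T58A, and LUM (3051.2 in Resistant) and THY1 (1949.5 under shMYC2) made up most of the high sums. Endothelial, epithelial and immune markers summed to at most 70.1, 495.7 and 61.1. These sums moved with the groups, and their part in the collagen results was not tested. In bulk RNA, fewer cells of a kind and less RNA per cell cannot be told apart.

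Values are normalized read counts (whole reads over a per-library size factor). Differences were tested on the log2(value + 1) scale with limma over 17012 genes, and a gene is called higher or lower at a Benjamini-Hochberg adjusted p under 0.05. Of the 40 genes, 39 passed the filter of at least 10 normalized reads in at least 3 libraries. COL24A1, a fibrillar chain, did not: its values were 9.34, 7.17 and 6.26 in Parental, 8.54, 16.9 and 15.5 in Resistant and 1.0, 1.04 and 0.881 in MYC T58A. COL24A1 was at 2.85, 5.29 and 3.82 under shMYC1 and 1.08, 2.09 and 0 under shMYC2. A further 5 reached a mean of 10 in a single group (COL11A1 under shMYC1, COL1A2 and COL3A1 in MYC T58A, COL4A4 and COL8A2 in Resistant) and so passed mainly through the group in which they were high. COL1A2 and COL3A1 passed only through the MYC T58A libraries, and COL8A2 only through the Resistant libraries. Their calls in those groups are therefore not independent of the filter.

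In Resistant against Parental, 12 of the 39 were called higher and 18 lower, and the median log2 difference was -0.09. Over all genes tested 51.6% were called (27.2% higher and 24.4% lower, median 0.009), so the share of collagen genes called lower was above that background and the share called higher was near it. In MYC T58A against Parental, 4 were called higher and 33 lower, with a median of -1.38. Of all genes 63.8% were called (30.1% higher, 33.7% lower, median -0.019). In the libraries labelled shMYC1 against Resistant, 15 were called higher and 19 lower, with a median of -0.13. Of all genes 57.1% were called (27.0% higher, 30.1% lower, median -0.027). In those labelled shMYC2 against Resistant, 13 were called higher and 23 lower, with a median of -0.91. Of all genes 79.2% were called (36.2% higher, 43.0% lower, median -0.075). Many small differences pass the threshold in these libraries. A call of at least 1 on the log2 scale was found for 8 higher and 8 lower collagen genes in Resistant against Parental (8.07% and 6.19% of all genes) and for 3 and 24 in MYC T58A (7.29% and 12.7%). Such calls were made for 6 and 15 under shMYC1 (6.27% and 10.7%) and 6 and 18 under shMYC2 (13.4% and 25.5%). Restricting the count to the 34 genes with a mean of 10 or more in at least 2 groups left 11 higher and 17 lower, 2 and 31, 14 and 15, and 12 and 20 in the 4 comparisons. No share over all genes was taken with the same restriction. Resistant against Parental and MYC T58A against Parental share the Parental libraries, and the comparisons with Resistant share those, so they are not independent of each other. The limma p-values rest on the spread between libraries within groups, pooled over all 5 groups and drawn towards that of other genes. They do not measure the spread of the compared groups alone. An exact permutation test of 3 against 3 for a single gene could not go below p = 0.1.

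**Figure D1:**
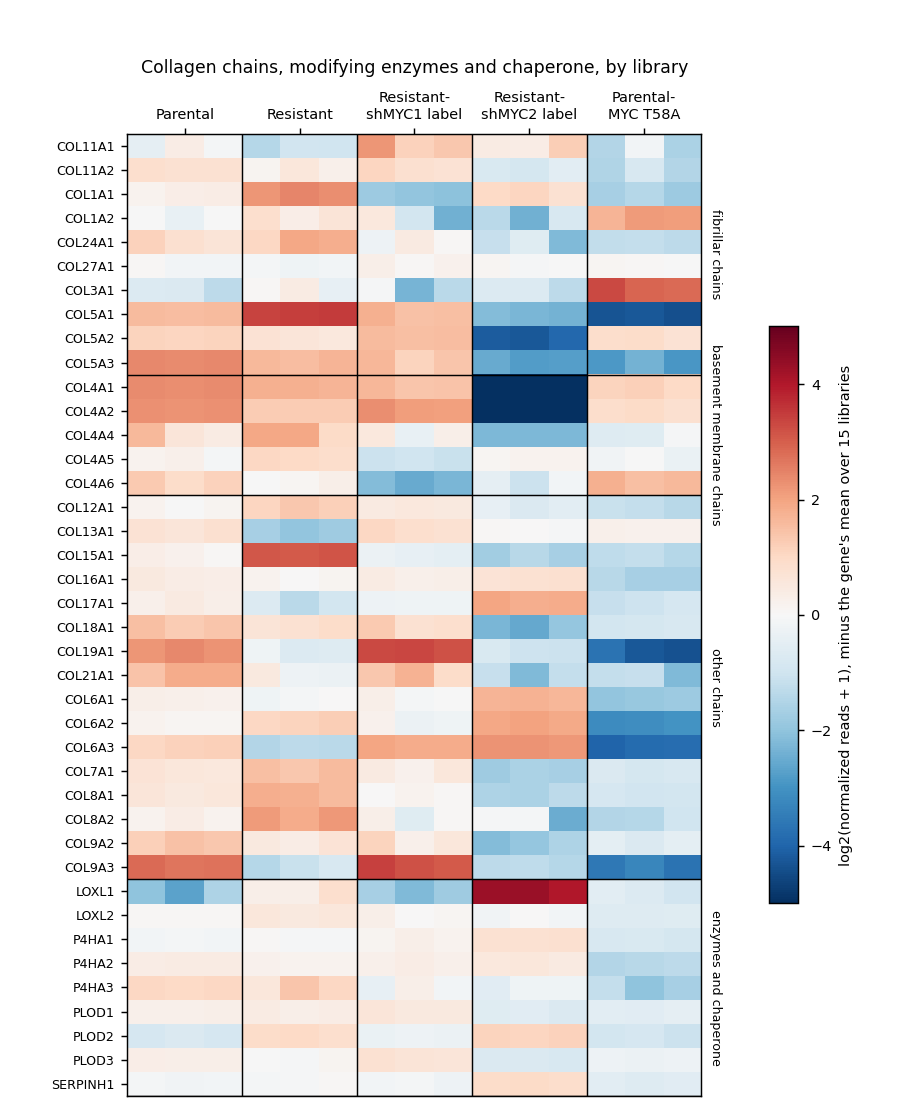
Log2(normalized reads + 1) of the 40 collagen genes in each of the 15 libraries (columns, 3 per group), minus the gene's own mean over the 15 libraries, with red above and blue below that mean and colours saturating at 5 log2 units. Most rows are blue in MYC T58A, and COL4A1 and COL4A2 are dark blue under the shMYC2 label.

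**Figure D2:**
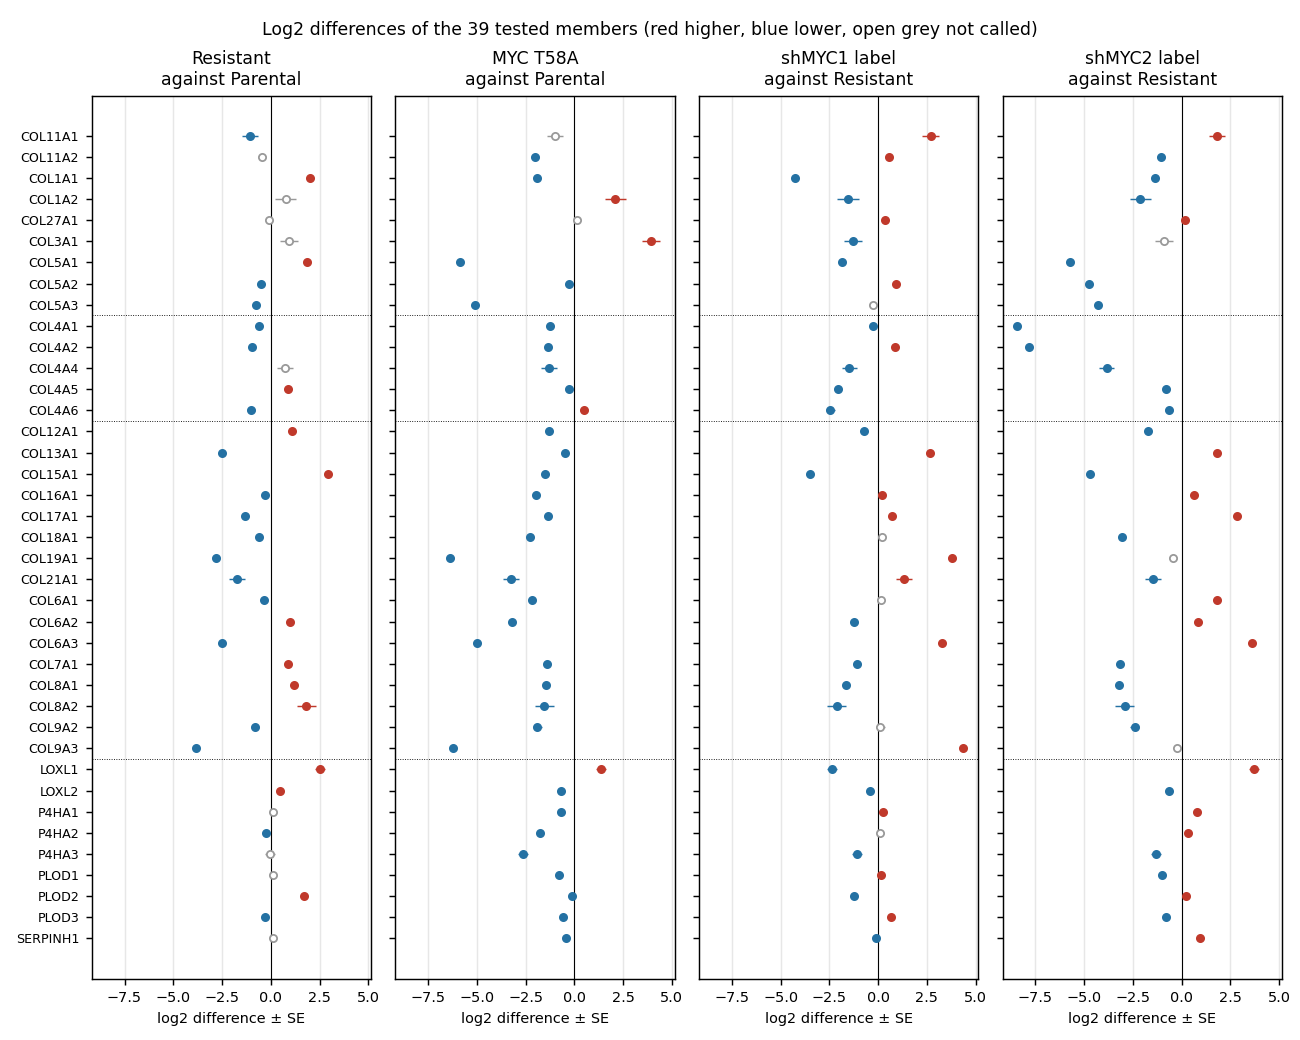
Log2 differences with standard errors for the 39 tested genes in the 4 comparisons, in red where called higher, blue where called lower and open grey where not called; dotted lines part fibrillar chains, basement membrane chains, other chains, and enzymes with the chaperone. In MYC T58A against Parental 33 of 39 points are blue, and under shMYC2 COL4A1 (-8.43) and COL4A2 (-7.85) lie farthest from 0.

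Among the fibrillar chains, COL5A1 and COL5A3 were far lower in MYC T58A than in Parental, all 3 type V chains were far lower under shMYC2 than in Resistant, and COL5A1 and COL1A1 rose in Resistant. COL5A1 encodes the chain that type V fibrils need to start, and type V limits the width of the type I fibrils it joins. In normalized reads, COL5A1 measured 4603.8, 4449.1 and 4577.6 in Parental, 15941.0, 16651.5 and 17418.3 in Resistant and 75.1, 81.0 and 71.4 in MYC T58A. COL5A1 was at 5314.9, 4230.6 and 4354.1 under shMYC1 and 342.4, 310.8 and 298.7 under shMYC2. Every Resistant library was above every other library, and every MYC T58A library was below every other. Differences below are on the log2(value + 1) scale with their standard errors. COL5A1 was 3.67-fold higher in Resistant than in Parental (1.87 ± 0.076, adjusted p = 9.16e-13 by limma) and 59.9-fold lower in MYC T58A (-5.89 ± 0.076, adjusted p = 6.05e-20). Against Resistant it was 3.6-fold lower under shMYC1 (-1.85 ± 0.076, adjusted p = 6.33e-13) and 52.5-fold lower under shMYC2 (-5.71 ± 0.076, adjusted p = 1.34e-20).

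COL5A2, the partner of COL5A1 in the common form of type V, followed a different order. Its values were 6537.1, 6388.9 and 6617.5 in Parental, 4973.2, 4634.5 and 4318.8 in Resistant and 5545.2, 5781.4 and 4996.8 in MYC T58A. COL5A2 was at 8959.3, 8598.8 and 8723.6 under shMYC1 and 166.9, 160.6 and 195.4 under shMYC2. Libraries labelled shMYC2 lay far below all others, while those of the other 4 groups lay between 4318.8 and 8959.3. The differences were -0.49 ± 0.069 in Resistant against Parental, -0.26 ± 0.069 in MYC T58A against Parental, 0.92 ± 0.069 under shMYC1 and -4.73 ± 0.069 under shMYC2 against Resistant, each called by limma (adjusted p = 1.01e-05, 0.00301, 2.69e-09 and 4.93e-20). COL5A3, a chain of a rarer type V trimer, measured 1821.2, 1796.4 and 1822.9 in Parental, 1057.6, 1008.7 and 1128.0 in Resistant and 46.1, 66.5 and 45.0 in MYC T58A. COL5A3 was at 1094.0, 748.0 and 901.4 under shMYC1 and 59.2, 49.0 and 50.1 under shMYC2. The shMYC2 and MYC T58A libraries were lowest and overlapped. It was 34.5-fold lower in MYC T58A than in Parental (-5.11 ± 0.14, limma adjusted p = 2.26e-14) and 20.2-fold lower under shMYC2 than in Resistant (-4.31 ± 0.14, adjusted p = 2.96e-14), and it was called lower in Resistant than in Parental (-0.77 ± 0.14). Levels per kilobase of exon were taken over all annotated exons of a gene joined. The ratio of COL5A1 to COL5A2 was then 0.465 ± 0.00422 (mean ± SD, n = 3) in Parental and 2.4 ± 0.276 in Resistant. It was 0.352 ± 0.0376 under shMYC1, 1.22 ± 0.183 under shMYC2 and 0.00929 ± 0.000248 in MYC T58A. By this measure COL5A1 was the more abundant of the pair only in Resistant and in the libraries labelled shMYC2.

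The promoter window of COL5A1 is shown because this gene rose most in reads among the chains in Resistant and was among those that fell most in MYC T58A. It holds the 250 bases before the start in RefSeq (GRCh38.p14, chr9:134641553-134641802, plus strand), with GC boxes (GGGCGG, or CCGCCC on the other strand) in capitals.
COL5A1: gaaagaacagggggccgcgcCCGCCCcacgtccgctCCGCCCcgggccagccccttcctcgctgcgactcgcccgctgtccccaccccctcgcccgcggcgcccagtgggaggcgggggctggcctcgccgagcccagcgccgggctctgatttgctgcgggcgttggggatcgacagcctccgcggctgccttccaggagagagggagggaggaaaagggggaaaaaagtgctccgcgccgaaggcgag

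Type I collagen, the main fibril of skin and bone, is built from COL1A1 and COL1A2. COL1A1 measured 96.6, 107.5 and 110.6 in Parental, 398.1, 467.2 and 429.7 in Resistant and 26.0, 31.2 and 23.8 in MYC T58A. COL1A1 was at 23.8, 21.2 and 20.1 under shMYC1 and 172.3, 179.4 and 146.3 under shMYC2. No library of Resistant overlapped with any other group, and the shMYC1 and MYC T58A libraries were the lowest. It was 4.11-fold higher in Resistant than in Parental (2.03 ± 0.13, limma adjusted p = 6.93e-10) and 3.88-fold lower in MYC T58A (-1.93 ± 0.13, adjusted p = 8.3e-10). Against Resistant it was 19.9-fold lower under shMYC1 (-4.25 ± 0.13, adjusted p = 1.9e-14) and 2.6-fold lower under shMYC2 (-1.38 ± 0.13, adjusted p = 2.75e-08). COL1A2 had few reads: 4.15, 3.07 and 4.17 in Parental, 8.54, 5.64 and 7.28 in Resistant and 16.0, 21.8 and 21.2 in MYC T58A. COL1A2 was at 6.66, 1.76 and 0 under shMYC1 and 1.08, 0 and 2.05 under shMYC2. Its highest libraries were those of MYC T58A, where COL1A1 was low, and it was called higher there than in Parental (2.10 ± 0.55, limma adjusted p = 0.00298, not called with a pseudocount of 0.1). It passed the filter through those libraries alone. COL1A2 was also called lower than in Resistant under shMYC1 (-1.54 ± 0.55, adjusted p = 0.0239), a call lost in edgeR and DESeq2 and on leaving out single libraries, numbered here in column order (adjusted p = 0.07 without Resistant 1, 0.0548 without Resistant 3 and 0.17 without shMYC1 3). It was also called lower under shMYC2 (-2.12 ± 0.55, adjusted p = 0.00194), which turned to 0.14 with quantile normalization.

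COL3A1, the chain of type III, which accompanies type I in elastic tissues, measured 2.08, 2.05 and 1.04 in Parental, 4.27, 5.64 and 2.73 in Resistant and 48.1, 36.4 and 34.4 in MYC T58A. COL3A1 was at 3.81, 0 and 0.956 under shMYC1 and 2.15, 2.09 and 1.02 under shMYC2. Every MYC T58A library was above all 12 others. COL3A1 passed the filter through those libraries alone, so its call in that group is a description and not independent support. The ratio of its mean in MYC T58A to that in Parental was 23.0 (exact 95% Poisson interval 9.53 to 71.6, counting error only), with a log2 difference of 3.91 ± 0.46 (limma adjusted p = 7.9e-07). COL3A1 and COL5A2 are neighbours in the genome, yet COL5A2 was lower in the same comparison, so the pair moved in opposite directions. Under shMYC1 COL3A1 was called lower than in Resistant (-1.27 ± 0.46, adjusted p = 0.0262), a call lost in edgeR and DESeq2 and on leaving out single libraries (adjusted p = 0.0594 without Resistant 1, 0.0969 without Resistant 2, 0.168 without shMYC1 2 and 0.0641 without shMYC1 3).

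COL27A1, a fibrillar chain of cartilage, was nearly level: its group means ran from 1586.1 in Resistant to 2026.8 under shMYC1. It was not called in either comparison with Parental (-0.09 ± 0.066 and 0.11 ± 0.066, limma adjusted p = 0.297 and 0.173), and was called higher than in Resistant by 0.35 ± 0.066 under shMYC1 and 0.16 ± 0.066 under shMYC2, the second lost with total-count scaling, with quantile normalization and on leaving out single libraries (adjusted p = 0.13 without Resistant 2, 0.0629 without Resistant 3, 0.155 without shMYC2 1 and 0.0648 without shMYC2 3). COL11A1 and COL11A2, which build type XI fibrils, had few reads. COL11A1 means were 4.48 in Parental, 1.59 in Resistant, 16.5 under shMYC1, 8.33 under shMYC2 and 2.01 in MYC T58A. It reached a mean of 10 under shMYC1 alone and passed the filter mainly through those libraries. Its higher call there is thus a description and not independent support. The ratio of shMYC1 to Resistant was 10.4 (exact 95% Poisson interval 4.09 to 32.6; log2 difference 2.70 ± 0.43, limma adjusted p = 3.09e-05), and it was called higher under shMYC2 too (1.81 ± 0.43, adjusted p = 0.00087). Its lower call in Resistant against Parental (-1.06 ± 0.43, adjusted p = 0.0468) was lost in edgeR and DESeq2 and on leaving out single libraries (adjusted p = 0.161 without Parental 2, 0.0838 without Parental 3, 0.132 without Resistant 1, 0.0663 without Resistant 2 and 0.068 without Resistant 3). COL11A2 means were 61.8, 45.3, 66.0, 21.3 and 14.7 in the same order, and it was 4.2-fold lower in MYC T58A than in Parental (-2.03 ± 0.2, adjusted p = 9.57e-08). In total, 2 of the 9 tested fibrillar chains were called higher and 3 lower in Resistant, 2 and 5 in MYC T58A, 4 and 4 under shMYC1, and 2 and 6 under shMYC2. Over all genes the shares called higher and lower were 27.2% and 24.4%, 30.1% and 33.7%, 27.0% and 30.1%, and 36.2% and 43.0%. The counts in Resistant were near these shares. Both called higher in MYC T58A, COL1A2 and COL3A1, reached a mean of 10 in that group alone. Among the 6 fibrillar chains that did so in at least 2 groups, 0 were called higher and 5 lower there. The same 6 gave 2 higher and 2 lower in Resistant, 3 and 2 under shMYC1, and 1 and 5 under shMYC2.

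**Figure D3:**
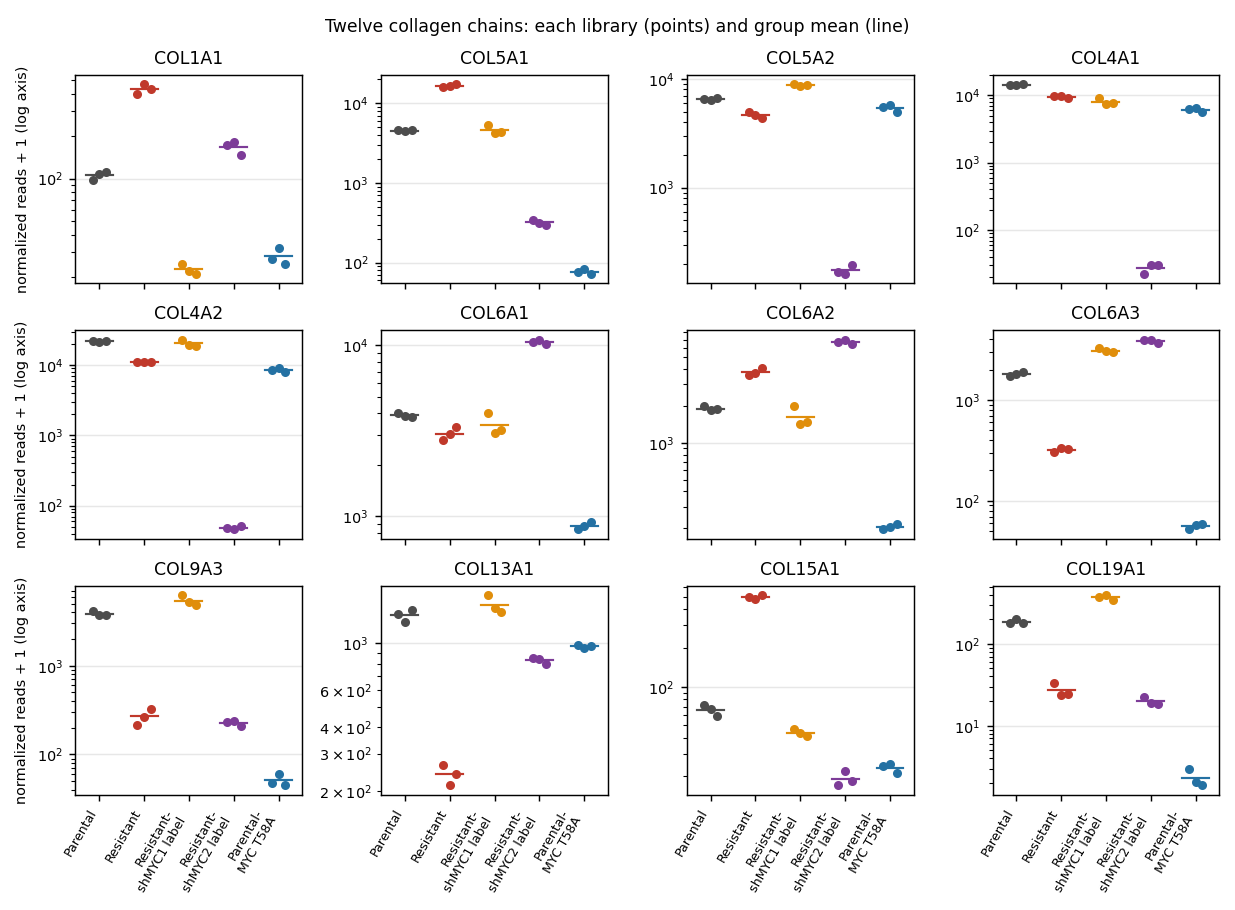
Normalized reads + 1 on a log axis for 12 collagen chains, with a point for each library and a line at the group mean. COL5A1 is highest in Resistant, COL4A1 and COL4A2 are lowest under the shMYC2 label, and COL6A3 is high under both hairpin labels.

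The basement membrane chains showed the largest single differences of the set. COL4A1 and COL4A2 make the common type IV trimer. COL4A1 measured 14445.9, 14163.4 and 14688.6 in Parental, 9641.2, 9754.2 and 9160.2 in Resistant and 6191.3, 6395.2 and 5641.1 in MYC T58A. COL4A1 was at 9002.1, 7347.1 and 7578.4 under shMYC1 and 21.5, 29.2 and 29.7 under shMYC2. The shMYC2 libraries lay far below the others. COL4A2 measured 22317.3, 21502.7 and 22273.4 in Parental, 11038.2, 11189.7 and 11167.6 in Resistant and 8490.5, 8971.2 and 8034.1 in MYC T58A. COL4A2 was at 23014.6, 19385.1 and 18784.4 under shMYC1 and 47.4, 44.8 and 50.1 under shMYC2. Both were abundant in 12 libraries and nearly gone from the 3 labelled shMYC2. Against Resistant, COL4A1 was 355-fold lower under that label (-8.43 ± 0.1, limma adjusted p = 4.63e-19) and COL4A2 235-fold lower (-7.85 ± 0.064, adjusted p = 3.71e-23). The 50 tested genes nearest to them on the chromosome had a median log2 difference of 0.14 in this comparison.

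Both chains were also lower than in Parental in Resistant, with log2 differences of -0.60 ± 0.1 for COL4A1 and -0.98 ± 0.064 for COL4A2 (limma adjusted p = 0.000114 and 5.77e-10), and in MYC T58A, with -1.25 ± 0.1 and -1.38 ± 0.064 (adjusted p = 2.61e-08 and 3.42e-12). Under shMYC1 they parted: COL4A2 was higher than in Resistant (0.87 ± 0.064, adjusted p = 2.13e-09) and COL4A1 was called lower (-0.26 ± 0.1, adjusted p = 0.0366), a call lost on leaving out single libraries (adjusted p = 0.0824 without Resistant 1, 0.0958 without Resistant 2, 0.159 without shMYC1 2 and 0.112 without shMYC1 3). The ratio of COL4A2 to COL4A1 per kilobase was 1.17 ± 0.0122 in Parental, 0.894 ± 0.0323 in Resistant, 1.95 ± 0.061 under shMYC1, 1.38 ± 0.266 under shMYC2 and 1.07 ± 0.0203 in MYC T58A. COL4A1 and COL4A2 lie head to head on chromosome 13 with 126 bases between their RefSeq starts. Their GENCODE v29 models overlap on opposite strands, and the strand counted is not given in the sources used here, so reads in the overlap may not be told apart.

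The interval between the starts of COL4A1 and COL4A2 is printed because it lies before both genes, and that before COL4A5 because its neighbour COL4A6 starts 379 bases away on the other strand of chromosome X. Both are from RefSeq (GRCh38.p14, plus strand), at chr13:110307158-110307283 and chrX:108439588-108439837, with CCAAT boxes (CCAAT, or ATTGG on the other strand) and GC boxes (GGGCGG or CCGCCC) in capitals.
COL4A1-COL4A2 interval: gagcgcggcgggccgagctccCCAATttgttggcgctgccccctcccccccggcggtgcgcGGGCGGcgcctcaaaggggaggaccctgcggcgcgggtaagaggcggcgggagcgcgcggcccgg
COL4A5: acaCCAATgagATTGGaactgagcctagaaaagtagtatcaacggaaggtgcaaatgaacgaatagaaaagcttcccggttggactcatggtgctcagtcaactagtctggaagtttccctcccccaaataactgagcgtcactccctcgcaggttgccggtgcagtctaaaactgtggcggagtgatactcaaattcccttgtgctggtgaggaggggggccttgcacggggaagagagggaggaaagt
Of the 40 genes, 31 matched the RefSeq promoter table, with 41 starts. In the 250 bases before a start, on either strand, CCAAT stood in 11 of 41 starts (26.8%, against 32.0% of all 35116 promoters), GGGCGG in 25 (61.0%, against 42.6%), and TATAAA in 6 (14.6%, against 10.7%). CACGTG, the E-box that MYC with its partner MAX can bind, stood in 0 (against 6.34%). Matches of CCAAT and of the GC box may share letters, and a match is a stretch of letters, not a bound site.

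COL4A5 and COL4A6, which make the type IV network of some epithelial basement membranes, moved apart in Resistant. COL4A5 measured 359.3, 370.8 and 290.1 in Parental, 644.6, 633.6 and 574.4 in Resistant and 280.5, 313.7 and 247.7 in MYC T58A. COL4A5 was at 148.4, 157.0 and 144.3 under shMYC1 and 337.0, 353.6 and 358.0 under shMYC2. Resistant was highest and shMYC1 lowest, with no overlap with other groups. COL4A6 measured 113.2, 88.1 and 103.3 in Parental, 44.8, 48.9 and 55.5 in Resistant and 158.3, 130.9 and 143.7 in MYC T58A. COL4A6 was at 9.51, 7.06 and 8.6 under shMYC1 and 33.4, 20.9 and 41.9 under shMYC2. MYC T58A was highest here, and every Resistant library was below every Parental library. In Resistant against Parental, COL4A5 was higher (0.87 ± 0.099, limma adjusted p = 7.94e-07) and COL4A6 lower (-1.01 ± 0.21, adjusted p = 0.0006). Under shMYC1 both were lower than in Resistant (-2.03 ± 0.099 and -2.44 ± 0.21, adjusted p = 6.55e-12 and 1.89e-08). Changes in MYC T58A were small, -0.27 ± 0.099 for COL4A5 and 0.51 ± 0.21 for COL4A6 (adjusted p = 0.0216 and 0.0454), and both calls were lost on leaving out single libraries (adjusted p = 0.0872 without Parental 1, 0.111 without Parental 2 and 0.125 without MYC T58A 3 for COL4A5, and adjusted p = 0.158 without Parental 2, 0.0806 without Parental 3, 0.137 without MYC T58A 1, 0.0534 without MYC T58A 2 and 0.0891 without MYC T58A 3 for COL4A6). COL4A4, a chain of the kidney and lung network, had few reads, with means of 8.29 in Parental, 14.1 in Resistant, 4.38 under shMYC1 and 2.54 in MYC T58A, the last called lower than Parental but not without Parental 1 (adjusted p = 0.0609). It had no read in any shMYC2 library and was there at least 4.48-fold lower than in Resistant (taking 3 reads in each library). COL4A4 reached a mean of 10 in Resistant alone, so its differences from Resistant are not independent of the filter. Across the 5 basement membrane chains, 1 was called higher and 3 lower in Resistant, 1 and 4 in MYC T58A and 1 and 4 under shMYC1, and 5 were called lower under shMYC2, of which COL4A6 turned to 0.40 with quantile normalization and was not called without shMYC2 library 2 (adjusted p = 0.0634). Over all genes the shares called higher and lower were 27.2% and 24.4%, 30.1% and 33.7%, 27.0% and 30.1%, and 36.2% and 43.0%.

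The beaded-filament chains of type VI, which link cells to the surrounding matrix, took the opposite course to type IV under the shMYC2 label. COL6A1 measured 4028.6, 3853.0 and 3795.0 in Parental, 2775.8, 3008.2 and 3321.1 in Resistant and 836.5, 872.5 and 929.9 in MYC T58A. COL6A1 was at 4004.9, 3073.3 and 3189.8 under shMYC1 and 10506.8, 10759.5 and 10211.4 under shMYC2. Parental, Resistant and shMYC1 lay between the high shMYC2 and the low MYC T58A libraries. COL6A2, its neighbour on chromosome 21, measured 1984.2, 1847.6 and 1881.3 in Parental, 3556.0, 3721.7 and 4118.5 in Resistant and 194.4, 203.6 and 216.8 in MYC T58A. COL6A2 was at 2008.2, 1416.7 and 1492.2 under shMYC1 and 6681.6, 6966.2 and 6397.8 under shMYC2. Resistant libraries lay between those of Parental and shMYC2. COL6A3, on chromosome 2, measured 1715.3, 1815.9 and 1884.5 in Parental, 301.0, 330.0 and 328.6 in Resistant and 51.1, 57.1 and 58.2 in MYC T58A. COL6A3 was at 3241.1, 3020.3 and 2993.9 under shMYC1 and 3940.5, 3942.5 and 3700.1 under shMYC2. For each of these chains the shMYC2 libraries were the highest of the 15 and the MYC T58A libraries the lowest.

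Under shMYC2, COL6A1, COL6A2 and COL6A3 were 3.46-fold, 1.76-fold and 12.1-fold higher than in Resistant (limma adjusted p = 2.03e-12, 1.24e-06 and 5.15e-19). In MYC T58A they were 4.42-fold, 9.29-fold and 32.5-fold lower than in Parental (adjusted p = 9.66e-13, 2.05e-13 and 5.27e-20). In Resistant the neighbours parted, with COL6A2 higher than in Parental (0.99 ± 0.099) and COL6A1 lower (-0.36 ± 0.083, adjusted p = 4.24e-07 and 0.00143), while COL6A3 was 5.64-fold lower there (-2.49 ± 0.063, adjusted p = 1.71e-15). Under shMYC1, COL6A3 was 9.65-fold higher than in Resistant (3.27 ± 0.063, adjusted p = 2.17e-17) and COL6A2 2.32-fold lower (-1.23 ± 0.099, adjusted p = 2.72e-08). COL6A1 was not called there by limma (0.17 ± 0.083, adjusted p = 0.0953). It was called higher by edgeR (adjusted p = 0.0496) and by limma when a library was left out (adjusted p = 0.031 without Resistant 3 and 0.0245 without shMYC1 2). The ratio of COL6A2 to COL6A1 per kilobase was 0.485 ± 0.00851 in Parental, 1.24 ± 0.0243 in Resistant, 0.473 ± 0.0215 under shMYC1, 0.632 ± 0.0104 under shMYC2 and 0.231 ± 0.000532 in MYC T58A.

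Among the fibril-associated chains, COL9A3 and COL19A1 shared a pattern over the groups. COL9A3, a chain of type IX, which decorates cartilage fibrils, measured 4084.7, 3707.5 and 3740.8 in Parental, 213.4, 263.2 and 327.7 in Resistant and 47.1, 59.2 and 44.1 in MYC T58A. COL9A3 was at 6183.4, 5200.0 and 4878.9 under shMYC1 and 229.3, 235.7 and 210.7 under shMYC2. Parental and shMYC1 libraries were far above the rest. COL19A1, the chain of type XIX, a rare collagen near basement membranes, measured 176.5, 198.7 and 179.5 in Parental, 32.0, 22.6 and 23.7 in Resistant and 2.0, 1.04 and 0.881 in MYC T58A. COL19A1 was at 371.0, 388.1 and 345.1 under shMYC1 and 21.5, 17.7 and 17.4 under shMYC2. Both were high in Parental and under shMYC1 and low in the other 3 groups, with no overlap between these sets of libraries. COL9A3 was 14.3-fold lower in Resistant and 76.7-fold lower in MYC T58A than in Parental (-3.86 ± 0.14 and -6.24 ± 0.14, limma adjusted p = 4.36e-12 and 8.19e-15), and 20.2-fold higher under shMYC1 than in Resistant (4.35 ± 0.14, adjusted p = 6.04e-13). COL19A1 was 7.09-fold lower than in Parental in Resistant (-2.79 ± 0.2, adjusted p = 1.67e-09), 14.1-fold higher under shMYC1 than in Resistant (3.78 ± 0.2, adjusted p = 1.76e-11) and lower in MYC T58A than in Parental by a ratio of 141 (exact 95% Poisson interval 55.6 to 527; log2 difference -6.36 ± 0.2, adjusted p = 1.34e-14). Neither was called under shMYC2 against Resistant (-0.23 ± 0.14 and -0.44 ± 0.2, adjusted p = 0.137 and 0.0516). However, COL9A3 was called on leaving out a library (adjusted p = 0.0107 without Resistant 1) and COL19A1 likewise (adjusted p = 0.038 without Resistant 2 and 0.0345 without shMYC2 1), and COL19A1 turned to 0.66 with quantile normalization. SOX10, a transcription factor of the neural crest and melanocytes, had the same high and low groups, with 5282.2 ± 149.2 in Parental, 7.5 ± 2.5 in Resistant, 11890.0 ± 1138.3 under shMYC1, 19.5 ± 3.7 under shMYC2 and 9.1 ± 2.0 in MYC T58A, and its part in these values was not tested.

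COL12A1, which bridges fibrils, measured 2585.4, 2308.5 and 2528.3 in Parental, 4818.5, 5828.4 and 5272.9 in Resistant and 1069.0, 1024.2 and 891.1 in MYC T58A. COL12A1 was at 3198.2, 3295.5 and 3255.8 under shMYC1 and 1730.1, 1412.2 and 1615.3 under shMYC2. Its Resistant libraries were above all others. It was 2.14-fold higher in Resistant than in Parental (1.10 ± 0.082, limma adjusted p = 5.44e-09), 2.49-fold lower in MYC T58A (-1.32 ± 0.082, adjusted p = 2.95e-10) and lower than in Resistant under shMYC1 and shMYC2 (-0.70 ± 0.082 and -1.74 ± 0.082). COL16A1, a minor fibril-associated chain, was highest under shMYC2 (652.9) and 3.9-fold lower in MYC T58A than in Parental (129.8 against 505.9, adjusted p = 6.44e-13), and lay at 415.4 in Resistant and 479.2 under shMYC1. COL9A2 and COL21A1 had few reads. COL9A2 means were 59.3 in Parental, 33.5 in Resistant, 37.4 under shMYC1, 5.56 under shMYC2 and 15.1 in MYC T58A, and it did not show the rise of COL9A3 under shMYC1 (0.12 ± 0.23, adjusted p = 0.7). COL21A1 means were 14.1, 3.63, 10.7, 0.7 and 0.68 in the same order, and its lower call under shMYC2 against Resistant (-1.48 ± 0.41) turned to 0.78 with quantile normalization.

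The multiplexins COL15A1 and COL18A1 sit in basement membrane zones and carry the fragments restin and endostatin at their ends. COL15A1 measured 70.6, 65.5 and 58.4 in Parental, 495.2, 478.5 and 512.5 in Resistant and 23.0, 23.9 and 20.3 in MYC T58A. COL15A1 was at 45.7, 42.3 and 40.1 under shMYC1 and 16.1, 20.9 and 17.4 under shMYC2. The Resistant libraries alone were above 100, and it was 7.64-fold higher there than in Parental (2.92 ± 0.14, limma adjusted p = 1.27e-11), the largest increase of the set in that comparison. It was 11.6-fold lower under shMYC1 and 27.3-fold lower under shMYC2 than in Resistant (-3.51 ± 0.14 and -4.70 ± 0.14, adjusted p = 6.04e-13 and 1.29e-15). COL18A1 moved otherwise: its means were 534.0 in Parental, 348.8 in Resistant, 407.5 under shMYC1, 42.2 under shMYC2 and 110.3 in MYC T58A, 8.28-fold lower under shMYC2 than in Resistant (-3.04 ± 0.15, adjusted p = 2.73e-12).

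The membrane-spanning chains COL13A1 and COL17A1 hold cells to the matrix, COL17A1 as a part of hemidesmosomes. COL13A1 measured 1376.8, 1262.8 and 1437.9 in Parental, 263.6, 211.5 and 239.4 in Resistant and 976.8, 951.4 and 966.9 in MYC T58A. COL13A1 was at 1683.8, 1471.4 and 1402.3 under shMYC1 and 852.7, 843.8 and 800.0 under shMYC2. Resistant stood below all other libraries, 5.71-fold lower than Parental (-2.51 ± 0.079, limma adjusted p = 3.32e-14), and COL13A1 was 6.38-fold and 3.49-fold higher than in Resistant under shMYC1 and shMYC2 (adjusted p = 7.28e-15 and 2.51e-13). COL17A1 measured 153.7, 174.1 and 154.4 in Parental, 79.0, 49.8 and 67.4 in Resistant and 56.1, 62.3 and 69.6 in MYC T58A. COL17A1 was at 107.5, 109.4 and 108.0 under shMYC1 and 501.7, 445.4 and 464.4 under shMYC2. It was highest under shMYC2, 7.2-fold above Resistant (2.85 ± 0.14, adjusted p = 1.27e-12), and 2.46-fold below Parental in Resistant (-1.31 ± 0.14, adjusted p = 3.23e-07).

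COL7A1, the anchoring fibril of the skin, and COL8A1 and COL8A2, which form hexagonal networks, were all called higher in Resistant than in Parental, 1.84-fold, 2.25-fold and 3.98-fold (limma adjusted p = 3.67e-07, 4.36e-09 and 0.00494, the last not called with a pseudocount of 0.1). COL7A1 means were 537.7 in Parental, 988.7 in Resistant, 474.7 under shMYC1, 110.6 under shMYC2 and 203.1 in MYC T58A, and COL8A1 means were 383.8, 863.7, 275.7, 93.4 and 137.9. COL8A2 measured 5.19, 6.15 and 5.22 in Parental, 23.5, 18.8 and 23.7 in Resistant and 1.0, 1.04 and 1.76 in MYC T58A. COL8A2 was at 5.71, 2.65 and 4.78 under shMYC1 and 4.31, 4.17 and 0 under shMYC2. All of these chains peaked in Resistant and were called lower than Resistant under both hairpin labels. COL8A2 passed the filter through the Resistant libraries alone. Over the 16 other chains, 6 were called higher and 10 lower in Resistant against Parental, 7 and 6 under shMYC1 and 6 and 8 under shMYC2 against Resistant. The shares over all genes were 27.2% and 24.4%, 27.0% and 30.1%, and 36.2% and 43.0%, and the shMYC2 counts were near theirs. For MYC T58A against Parental the shares were 30.1% and 33.7%. In MYC T58A against Parental 16 of 16 were called lower, with differences of -0.49 to -6.36, and 15 of them by at least 1; COL8A2 was not called with quantile normalization or a pseudocount of 0.1, and none changed direction under the other scalings.

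Summed per kilobase of exon, the chains came to 6528.0 ± 152.5 normalized reads per kilobase in Parental, 5896.5 ± 144.0 in Resistant, 6485.1 ± 623.7 under shMYC1, 4129.6 ± 103.5 under shMYC2 and 2315.0 ± 110.6 in MYC T58A (mean ± SD, n = 3). This sum was lowest in MYC T58A, and every Resistant library (5747.3 to 6034.6) was below every Parental library (6371.3 to 6675.9). Without division by length, the chains held 0.269 ± 0.00574% of all reads in genes in Parental, 0.242 ± 0.00597% in Resistant and 0.243 ± 0.0215% under shMYC1. They held 0.0989 ± 0.00239% under shMYC2 and 0.104 ± 0.00442% in MYC T58A, whose libraries overlapped. The make-up of the sum per kilobase differed between groups. COL4A1 with COL4A2 made up 32.5 ± 0.455% of the sum in Parental, 20.7 ± 0.76% in Resistant, 24.6 ± 0.381% under shMYC1, 0.104 ± 0.0105% under shMYC2 and 36.8 ± 0.442% in MYC T58A. The 3 type V chains made up 23.7 ± 0.338%, 38.5 ± 0.532%, 26.7 ± 1.06%, 1.44 ± 0.0876% and 32.1 ± 0.89% in the same order, and the 3 type VI chains 18.0 ± 0.266%, 21.9 ± 1.26%, 16.9 ± 0.848%, 82.3 ± 0.776% and 8.9 ± 0.87%. With the lengths taken, type IV or type V transcripts had the largest share in 4 groups, and type VI transcripts under the shMYC2 label. The lengths joined all annotated exons of a gene: 19293 bases for COL4A2, 14738 for COL4A1, 7453 for COL5A2 and 5343 for COL6A1. Such a length can exceed that of any single transcript, so the ranking of types within a group depends on it. Other lengths were not tried. COL9A3 alone made up 12.2 ± 0.426% in Parental and 17.2 ± 0.693% under shMYC1, but 0.936 ± 0.178% in Resistant.

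**Figure D4:**
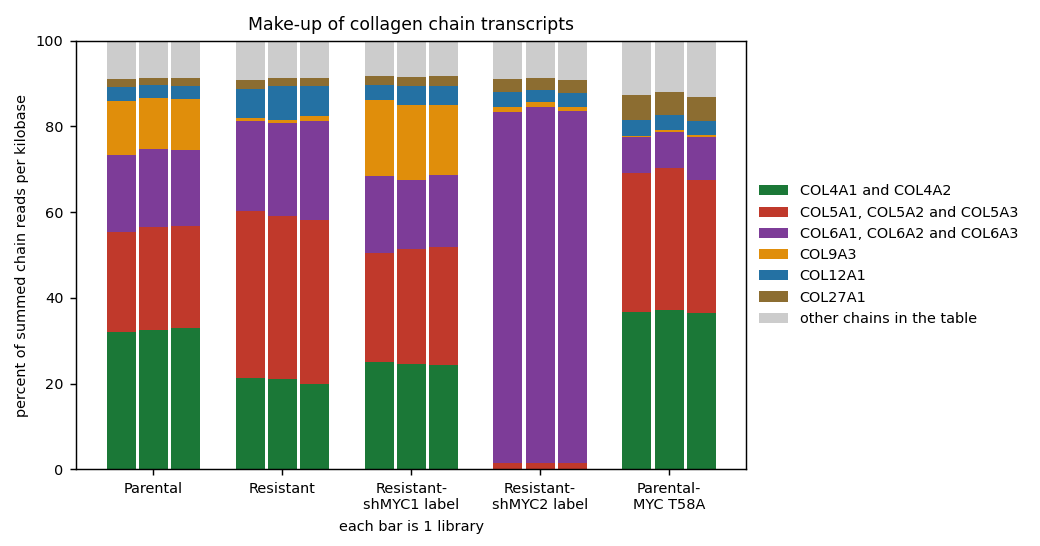
Percent of the summed normalized reads per kilobase of all 31 chains taken by each chain or group of chains, with a bar for each of the 15 libraries. Under the shMYC2 label type VI chains fill 81.9% to 83.2% of each bar, and in the other groups type IV or type V chains fill the largest share. The shares depend on the lengths taken, those of all annotated exons of a gene joined.

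The prolyl 4-hydroxylase subunits differed little in Resistant. P4HA1 measured 2378.7, 2440.6 and 2377.0 in Parental, 2739.5, 2513.7 and 2556.3 in Resistant and 1518.8, 1569.5 and 1420.0 in MYC T58A. P4HA1 was at 2934.7, 3215.3 and 2981.5 under shMYC1 and 4446.5, 4483.8 and 4569.7 under shMYC2. Every library with a hairpin label was above every Resistant library. P4HA2 measured 1451.5, 1453.3 and 1461.9 in Parental, 1280.7, 1237.1 and 1241.8 in Resistant and 403.7, 423.8 and 443.4 in MYC T58A. P4HA2 was at 1336.6, 1422.8 and 1331.6 under shMYC1 and 1609.6, 1658.4 and 1498.7 under shMYC2. For both, shMYC2 libraries were the highest and MYC T58A libraries the lowest. P4HA1 was 1.73-fold higher under shMYC2 than in Resistant (0.79 ± 0.05, limma adjusted p = 5.21e-11), and in MYC T58A P4HA1 was 1.6-fold and P4HA2 3.44-fold lower than in Parental (adjusted p = 1.66e-09 and 6.17e-15). P4HA3, the least abundant subunit, measured 50.9, 49.2 and 50.1 in Parental, 36.3, 63.9 and 51.0 in Resistant and 10, 5.19 and 7.05 in MYC T58A. P4HA3 was at 18.1, 30 and 22.0 under shMYC1 and 16.1, 20.9 and 20.5 under shMYC2. It was 6.74-fold lower in MYC T58A than in Parental (-2.64 ± 0.26, adjusted p = 6.93e-08).

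Of the lysyl hydroxylases, PLOD2 rose most in Resistant. PLOD2 acts on the ends of the chains, where its product gives the stiff cross-links of scar tissue. It measured 2901.0, 3155.5 and 2922.7 in Parental, 9962.5, 10289.1 and 9400.6 in Resistant and 2794.1, 2886.5 and 2487.4 in MYC T58A. PLOD2 was at 4192.3, 4336.4 and 4233.7 under shMYC1 and 11366.0, 10973.4 and 11760.3 under shMYC2. Every Resistant and shMYC2 library was above every library of the other groups. It was 3.3-fold higher in Resistant than in Parental (1.72 ± 0.055, limma adjusted p = 4.11e-14) and 2.32-fold lower under shMYC1 than in Resistant (-1.22 ± 0.055, adjusted p = 2.7e-12). PLOD1, which acts within the helix, measured 5392.9, 5316.5 and 5532.4 in Parental, 5978.5, 5522.9 and 5845.5 in Resistant and 3100.7, 3027.8 and 3275.4 in MYC T58A. PLOD1 was at 6842.6, 6344.1 and 6309.9 under shMYC1 and 2928.4, 3041.4 and 2737.5 under shMYC2. The shMYC2 and MYC T58A libraries were the lowest. PLOD3, which also adds sugars to hydroxylysine, measured 6426.1, 6209.6 and 6235.6 in Parental, 5031.9, 4897.8 and 5503.2 in Resistant and 4230.7, 4174.5 and 4286.3 in MYC T58A. PLOD3 was at 8562.6, 7895.7 and 7602.3 under shMYC1 and 3050.1, 3067.5 and 2887.9 under shMYC2. Both fell where PLOD2 was high under shMYC2: the differences from Resistant were -0.99 ± 0.05 for PLOD1 and -0.78 ± 0.051 for PLOD3 (adjusted p = 2.26e-12 and 9.84e-11).

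LOXL1, a lysyl oxidase of elastic fibres, measured 7.27, 4.1 and 10.4 in Parental, 39.5, 39.5 and 57.4 in Resistant and 22.0, 19.7 and 15.9 in MYC T58A. LOXL1 was at 9.51, 6.17 and 8.6 under shMYC1 and 632.0, 647.7 and 530.9 under shMYC2. The shMYC2 libraries stood far above all others, and those of Parental and shMYC1 overlapped. It was 6.25-fold higher in Resistant than in Parental (2.54 ± 0.26, limma adjusted p = 2.24e-07), 5.61-fold lower under shMYC1 and 13.3-fold higher under shMYC2 than in Resistant (-2.35 ± 0.26 and 3.72 ± 0.26, adjusted p = 4.84e-07 and 2.75e-10), and it was the single enzyme called higher in MYC T58A than in Parental (1.35 ± 0.26, adjusted p = 0.000204). LOXL2, a lysyl oxidase active on type IV collagen, measured 6597.4, 6620.3 and 6673.9 in Parental, 9526.0, 8989.0 and 9406.9 in Resistant and 4078.5, 4035.3 and 4155.0 in MYC T58A. LOXL2 was at 7682.6, 6403.2 and 6742.0 under shMYC1 and 5686.8, 6398.8 and 5750.2 under shMYC2. Resistant was highest and MYC T58A lowest, with no overlap with other groups. It changed less: 0.49 ± 0.058 in Resistant and -0.70 ± 0.058 in MYC T58A against Parental (adjusted p = 1.42e-06 and 9.32e-09). The chaperone SERPINH1 measured 3462.7, 3228.2 and 3309.8 in Parental, 3462.0, 3580.7 and 3793.5 in Resistant and 2527.6, 2354.7 and 2512.9 in MYC T58A. SERPINH1 was at 3321.9, 3463.1 and 3122.0 under shMYC1 and 7060.5, 7148.7 and 6694.4 under shMYC2. The shMYC2 libraries were highest and MYC T58A libraries lowest. It was not called in Resistant against Parental (0.12 ± 0.051, adjusted p = 0.0691; adjusted p = 0.0412 without Resistant 1), was 1.93-fold higher under shMYC2 than in Resistant (0.95 ± 0.051, adjusted p = 5.67e-12) and 1.35-fold lower in MYC T58A than in Parental (-0.44 ± 0.051, adjusted p = 7.37e-07). Over the 8 enzymes and the chaperone together, 3 were called higher and 2 lower in Resistant, 1 and 8 in MYC T58A, 3 and 5 under shMYC1, and 5 and 4 under shMYC2. Over all genes the shares called higher and lower were 27.2% and 24.4%, 30.1% and 33.7%, 27.0% and 30.1%, and 36.2% and 43.0%. The counts in Resistant, and the 4 lower under shMYC2, were near these shares.

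**Figure D5:**
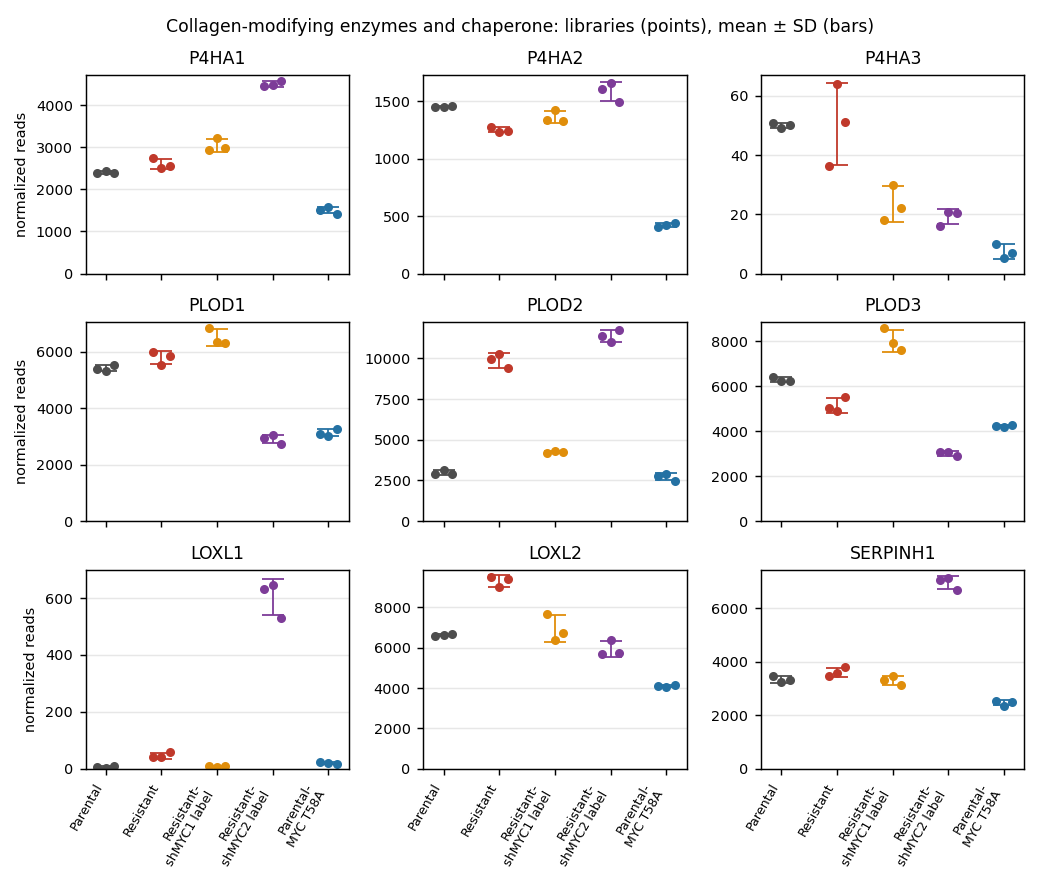
Normalized reads of the 8 collagen-modifying enzymes and the chaperone on axes that start at 0, with a point for each library and bars at the mean ± SD of 3 libraries. PLOD2 is high in Resistant and under the shMYC2 label, and LOXL1 lies between 530.9 and 647.7 under shMYC2 and at or below 57.4 elsewhere.

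The libraries labelled shMYC1, set against Parental, held 11 collagen genes called higher and 11 lower of 39 (39.6% of all genes were called, 19.7% higher and 19.9% lower), with 1 higher and 5 lower by at least 1 on the log2 scale (3.16% and 5.63% of all genes). COL5A1 (0.02 ± 0.076), COL4A2 (-0.12 ± 0.064), COL6A1 (-0.20 ± 0.083), COL6A2 (-0.23 ± 0.099) and COL13A1 (0.16 ± 0.079) were not called (limma adjusted p = 0.859, 0.165, 0.0726, 0.0749 and 0.124), which does not show that they were equal. COL4A2, COL6A1 and COL6A2 were called lower without shMYC1 library 1 (adjusted p = 0.00481, 0.000875 and 0.000144). They were also called lower with all libraries under total-count scaling (limma adjusted p = 0.0277, 0.0234 and 0.028). With quantile normalization COL6A1 and COL6A2 were called lower as well (adjusted p = 0.0159 and 0.0321). COL4A6 was 12.1-fold lower than in Parental (-3.45 ± 0.21, adjusted p = 8.81e-10), COL1A1 4.84-fold lower (-2.22 ± 0.13, adjusted p = 6.95e-10) and COL4A5 2.27-fold lower (-1.17 ± 0.099, adjusted p = 4.79e-08). COL19A1, COL6A3 and PLOD2 were called higher, by 0.99 ± 0.2, 0.77 ± 0.063 and 0.51 ± 0.055 (adjusted p = 0.000627, 3.12e-08 and 1.03e-06).

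Genes that act with collagen were read from 5 lists of genes outside the set, each tested in the same fit. Their counts are to be read against the share of all genes called higher and lower, which was 27.2% and 24.4% in Resistant against Parental, 30.1% and 33.7% in MYC T58A against Parental, 27.0% and 30.1% under shMYC1 and 36.2% and 43.0% under shMYC2 against Resistant. Of 15 genes of folding and modification, 13 were called higher and 0 lower in Resistant against Parental, most by less than 1 on the log2 scale (list median 0.37), and the counts were the same with total-count scaling and quantile normalization. CREB3L1, a transcription factor that raises collagen genes in bone, rose most (819.0 against 50.4, 4.0 ± 0.15, limma adjusted p = 3.5e-13), followed by MIA3, an export factor for collagen, and COLGALT2, a collagen galactosyltransferase (0.63 ± 0.055 and 0.63 ± 0.11, adjusted p = 3.07e-08 and 6.89e-05). In MYC T58A the list split into 4 higher and 7 lower, with COLGALT2 lower (-1.05 ± 0.11) and COLGALT1 higher (0.74 ± 0.047, adjusted p = 1.04e-07 and 2.17e-10). Against Resistant it split into 2 higher and 8 lower under shMYC1, where CREB3L1 was at 19.2 (-5.36 ± 0.15, adjusted p = 3.2e-15), and 4 higher and 9 lower under shMYC2, where LEPREL1 (P3H2), a prolyl 3-hydroxylase active on type IV collagen, was at 95.1 against 1191.5 (-3.64 ± 0.08, adjusted p = 1.37e-17).

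Of 9 genes of propeptide cleavage and cross-linking, 5 were called higher and 2 lower in Resistant, 2 and 5 in MYC T58A, 3 and 3 under shMYC1, and 0 and 7 under shMYC2. Under shMYC1 the counts were near the shares over all genes, 27.0% higher and 30.1% lower. TLL1, a protease that removes the ends of fibrillar procollagens, was at 392.8 in Resistant against 2.06 in Parental, a ratio of 190 (exact 95% Poisson interval 87.0 to 518; limma adjusted p = 6.68e-09). PXDN, which cross-links type IV collagen, ran the other way, at 0.356 against 396.2 (adjusted p = 4.68e-13). Under shMYC2 LOXL3, a lysyl oxidase, was at 30.4 against 3255.6 in Resistant (-6.70 ± 0.055, adjusted p = 3.71e-23), the reverse of LOXL1.

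The 8 receptors gave 2 higher and 4 lower in Resistant, 0 and 7 in MYC T58A, 3 and 3 under shMYC1, and 3 and 4 under shMYC2. The last were near the shares over all genes, 36.2% higher and 43.0% lower. DDR2, a kinase that senses fibrillar collagen, was at 6144.3 in Resistant against 2711.6 in Parental (1.18 ± 0.055, limma adjusted p = 7.56e-12) and at 348.3 under shMYC2 (-4.14 ± 0.055 against Resistant, adjusted p = 1.44e-20). ITGA1 and ITGA10, alpha subunits of collagen-binding integrins, were lower in Resistant (-1.62 ± 0.067 and -2.10 ± 0.11) and in MYC T58A (-1.98 ± 0.067 and -1.81 ± 0.11) than in Parental (adjusted p = 1.25e-12, 1.99e-11, 4.58e-14 and 7.64e-11). MRC2, an uptake receptor for collagen, was higher under shMYC2 than in Resistant (1.34 ± 0.08, adjusted p = 2.3e-11).

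Partners of fibrils and basement membranes (16 genes) gave 7 higher and 6 lower in Resistant, 4 and 8 in MYC T58A, 2 and 9 under shMYC1, and 2 and 13 under shMYC2, where the list median was -5.32 and 43.0% of all genes were called lower. LUM, which binds type I fibrils and is also on the fibroblast marker list, was at 3051.2 in Resistant, 199.1 in Parental and 3.86 under shMYC2 (3.93 ± 0.14 and -9.33 ± 0.14, limma adjusted p = 1.09e-13 and 4.66e-20). LAMA4, a laminin chain, was at 8.03 under shMYC2 against 3576.6 in Resistant (-8.71 ± 0.22, limma adjusted p = 7.59e-13), in the libraries in which COL4A1 and COL4A2 were low. FN1, fibronectin, was at 211.8 in MYC T58A against 16563.9 in Parental (-6.28 ± 0.051, adjusted p = 1.65e-22) and higher under shMYC2 than in Resistant (0.82 ± 0.051, adjusted p = 5.15e-11). The 10 genes of collagen degradation gave 4 and 4, 1 and 8, 4 and 6, and 3 and 5 in the same order, the last near the shares over all genes of 36.2% and 43.0%. CTSK, a collagen-cleaving cathepsin, was higher in Resistant than in Parental (3.92 ± 0.12, adjusted p = 2.41e-14). MMP14, a membrane-bound collagenase, was at 22803.2 under shMYC2 against 3472.1 in Resistant (2.72 ± 0.055, adjusted p = 3.96e-18). TIMP3, an inhibitor of these enzymes, was higher under shMYC1 (4.32 ± 0.28) and lower under shMYC2 (-5.73 ± 0.28) than in Resistant (adjusted p = 9.86e-08 and 2.11e-09).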

How the data were processed

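Stranded poly(A) RNA libraries were read from a deposited table of normalized counts (a signal: the authors' whole reads over a per-library size factor; 100% of values gave whole reads within 0.01). Trim Galore, cutadapt, STAR, HTSeq and DESeq2 are named in the submitters' processing notes; build, annotation and strand: not given in the sources used here. Columns were mapped to groups by name. The 17012 of 18322 genes that reached 10 in 3 or more libraries were fitted on log2(value + 1) with limma 3.58.1 (trend and robust, R 4.3.3) over all 15 libraries and 5 groups, with Benjamini-Hochberg adjustment over all genes tested. The fit was also run on simulated counts in which few genes were changed, all with Parental means well above the filter. That run does not cover genes with few reads or broad shifts between groups. edgeR 4.0.16 and DESeq2 1.42.0 ran on the recovered reads; edgeR called 9253 genes in Resistant against Parental, against 8781 by limma. Levels of different genes were compared per kilobase of exon in GENCODE v29, with all annotated exons of a gene joined. Shares and ratios between genes depend on these lengths, and other lengths were not tried. Poisson intervals cover counting error only.

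The genes and lists were chosen with earlier results of these data known. Values in every library are given for the main chains of types I, III, IV, V and VI, the enzymes and chaperone, and the 6 called chains or enzymes with the largest change each way per comparison that had no overlap and a mean of at least 20. Of each list of other genes, up to 2 called genes per direction and comparison are named. Other pseudocounts, filters, scalings, tools, sets of libraries and leaving out each library were tried.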

Additional observations from a re-analysis of the deposited data

Results flagged for a closer look

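The libraries labelled shMYC1 and shMYC2 were called in opposite directions against Resistant for 10 of 39 collagen genes (25.6%), against 16.2% of all genes tested. Both comparisons use the same Resistant libraries. The difference of shMYC2 minus shMYC1, added after seeing the data, is given as a description with no test, since the genes were chosen for opposite calls. It was -8.71 for COL4A2, -5.65 for COL5A2, -2.83 for COL21A1, -1.59 for COL11A2, -1.42 for PLOD3 and -1.16 for PLOD1 on the log2 scale. The genes with the higher level under shMYC2 were LOXL1 at 6.07, COL6A2 at 2.04, PLOD2 at 1.42 and SERPINH1 at 1.08. For 5 of the 10 genes a call against Resistant was lost or changed sign in an alternative: COL11A2 (0.54 under shMYC1 and -1.05 under shMYC2), COL21A1 (1.35 and -1.48), PLOD1 under shMYC1 (0.17), SERPINH1 under shMYC1 (-0.13) and PLOD2 under shMYC2 (0.20).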

How the results depend on the processing

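No paired analysis was possible because the columns are numbered from 1 to 15 across the groups and carry no replicate number. Of the single-gene values under other settings, 3037 kept the same call or stayed uncalled. Sign changes with no call in either setting are counted among these. A call was lost for 161, which include changes under 1 on the log2 scale where at least 1 was asked for. A call was gained for 42, and 6 changed sign with a call in either setting. All 6 were shMYC2 against Resistant with quantile normalization: COL11A2 0.04, COL19A1 0.66, COL1A2 0.14, COL21A1 0.78, COL3A1 1.32 and COL4A6 0.40. In that comparison the median of all genes moved from -0.075 to 0.152 (-0.219 with total-count scaling). Called genes there were 56% higher with quantile normalization, against 45.7%, and in shMYC1 against Parental 37.5% higher with total-count scaling, against 49.8%; the collagen genes' own split moved from 36.1% to 41.9% and from 50% to 40.7%. Asking for at least 1 on the log2 scale left 8 lower in Resistant against Parental, 6 higher in each of the shMYC1 and shMYC2 comparisons with Resistant, and 1 higher and 5 lower in shMYC1 against Parental. In MYC T58A against Parental a pseudocount of 0.1 or a minimum of 50 left 2 higher. Leaving out single libraries gave 12 to 13 higher and 17 to 18 lower in Resistant, 3 to 5 and 31 to 34 in MYC T58A, 13 to 16 and 15 to 19 under shMYC1, 12 to 13 and 22 to 24 under shMYC2, and 11 and 9 to 15 in shMYC1 against Parental. Genes with few reads (COL1A2, COL3A1, COL4A4, COL8A2, COL11A1, COL21A1) limit what can be read from their fold changes.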
